A study of Mus musculus with 27 samples.

Results

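The genes described here are the receptors and ligands of the platelet-derived growth factor (PDGF) family, 7 of the 54446 genes counted in each of 27 libraries. They were chosen by name: the receptor genes Pdgfra and Pdgfrb, the receptor-like gene Pdgfrl, and the ligand genes Pdgfa, Pdgfb, Pdgfc and Pdgfd. The libraries were bulk RNA sequencing of cells sorted from 12-week-old NOD mice, a strain that develops autoimmune diabetes. The control mice were NOD/ShiLtJ (TG-), and the transgenic mice were Ins2-CCL21 NOD (TG+), in which the insulin gene promoter Ins2 drives the chemokine CCL21 in beta cells of the pancreas. All groups share the NOD background and the age, and each population was sorted with antibodies from a single cell suspension of pancreatic islets or of skin-draining lymph nodes. Islet libraries were labelled CD45 (leukocytes of the infiltrate, 4 TG- and 4 TG+), gp38-high (2 and 2) or gp38-low (4 and 4), the latter kinds described as resembling fibroblastic reticular cells (FRCs). Lymph node FRCs (LN FRC) gave 4 TG- and 3 TG+ libraries. A library is named below by its label and replicate number, as in CD45 TG- 4. Nothing in the labels ties the libraries of one group to different animals, and the p-values measure only the spread between these libraries, part of which may be technical.

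PDGF ligands are dimers that bring receptor tyrosine kinase chains together at the cell surface. PDGF-A and PDGF-C act mainly through the alpha receptor and PDGF-D through the beta receptor, while PDGF-B binds both. PDGF-C and PDGF-D are secreted with an additional domain that proteases must remove before they can bind. In many tissues the alpha receptor marks fibroblasts and the beta receptor marks pericytes, smooth muscle and fibroblasts, and blood vessel endothelium and macrophages are known sources of PDGF-B. Pdgfrl encodes a secreted protein that resembles the outer part of the receptors and has no kinase.

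The libraries were compared in 4 classes set by marker genes, because the labels did not describe the RNA in many of them. In CPM (counts of a gene scaled to a common total of reads in genes), a library was Ptprc-high above 100 CPM of Ptprc, which encodes CD45. Of the rest it was Ccl21a-high above 1000 CPM of the lymphoid stroma chemokine Ccl21a, then Msln-high above 100 CPM of the mesothelial gene Msln, and otherwise one of the remaining libraries. The classes held 8, 7, 4 and 8 libraries. The gaps were wide: Ptprc was at 169 CPM or more in its class and at most 5.79 CPM elsewhere, Ccl21a at 2162 or more against at most 5.28, and Msln at 573 or more against at most 2.52. Only 1 of the 8 Ptprc-high libraries was labelled CD45 (CD45 TG- 4), and the others were gp38-high TG- 2, gp38-low TG- 1, LN FRC TG- 3 and 4, and all 3 LN FRC TG+ libraries. No library labelled LN FRC was Ccl21a-high. The Ccl21a-high libraries were CD45 TG- 1, 2 and 3, CD45 TG+ 3, gp38-low TG- 3 and gp38-low TG+ 1 and 3. The Msln-high libraries were CD45 TG+ 1, gp38-high TG- 1, gp38-low TG- 4 and LN FRC TG- 2, and the remaining ones CD45 TG+ 2 and 4, gp38-high TG+ 1 and 2, gp38-low TG- 2, gp38-low TG+ 2 and 4, and LN FRC TG- 1. The transgene is driven in beta cells, which were not a sorted population, so it offers no check of the TG labels here. Reads in genes numbered 8517844 to 25194443 per library. The non-coding RNA Gm26917 took 20.8% to 36.0% of them in the Ptprc-high class and 5.31% to 22.2% in the others, which lowers the CPM of other genes accordingly. With no read, a gene could still be at up to 3 counts, which is 0.119 to 0.352 CPM depending on the library. The classes come from measured genes, so differences between them are given as ranges and medians, with no test. In sorted bulk RNA, fewer cells of a type and less RNA per cell cannot be told apart.

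Both receptor genes were high in the classes without Ptprc and nearly absent from the Ptprc-high class. Pdgfra (ENSMUSG00000029231.15, chr5:75152292-75198215, plus strand, GRCm38) ran from 966 to 1701 CPM with a median of 1231 in the 8 remaining libraries. It ran from 841 to 1184 CPM with a median of 1017 in the Ccl21a-high class, so these ranges overlapped. The Msln-high libraries held 123, 185, 281 and 319 CPM, all below both. In the Ptprc-high class Pdgfra ran from 0.326 to 4.58 CPM (median 1.3), which was 3 to 39 reads per library, so those low values carry a large counting error. Thus the Ccl21a-high median was 4.37-fold the Msln-high median with no overlap of the classes, and the remaining median was 1.21-fold the Ccl21a-high median with overlap.

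Pdgfrb (ENSMUSG00000024620.11, chromosome 18, plus strand) had another order. It was highest in the Ccl21a-high class, from 563 to 783 CPM with a median of 631, and lower in the remaining libraries, from 215 to 444 CPM with a median of 301. The Msln-high libraries held 51.6, 90.2, 101 and 105 CPM, and the Ptprc-high ones 1.85 to 3.42 CPM with a median of 2.47. No 2 neighbouring classes in this order overlapped, and the Ccl21a-high median was 2.10-fold the median of the remaining libraries. The summed level of the pericyte markers had the same order of classes as Pdgfrb. The 7 genes summed to 2038 to 3122 CPM in the Ccl21a-high class, 178 to 419 in the remaining libraries, 112 to 141 in the Msln-high class and 4.49 to 8.93 in the Ptprc-high class. Notch3 (1142 to 1632 CPM) and Rgs5 (309 to 1443 CPM) made up most of it in the Ccl21a-high class, and Higd1b was at most 0.238 CPM in any library. Cspg4, another pericyte marker, had a different order, at 35.3 to 71.4 CPM in the remaining libraries, 15.7 to 24.4 in the Msln-high and 5.21 to 12.6 in the Ccl21a-high class. The 5 smooth muscle markers summed to 1624 to 2152 CPM in the Ccl21a-high class and to at most 359 CPM in any other library. The part of such cells in the Pdgfrb level was not tested.

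Pdgfrl (ENSMUSG00000031595.9, chr8:40926212-40990785) separated all 4 classes as well, in the order of the Pdgfra medians. It ran from 40.7 to 60.7 CPM in the remaining libraries (median 47.9), from 13.8 to 32.0 in the Ccl21a-high class (23.9) and from 3.88 to 11 in the Msln-high class (7.87). In the Ptprc-high class it ran from 0 to 0.348 CPM, at most 4 reads. The remaining median was 2.0-fold the Ccl21a-high median and 6.09-fold the Msln-high median, without overlap. For Pdgfra, the remaining and Ccl21a-high ranges overlapped.

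**Figure D1:**
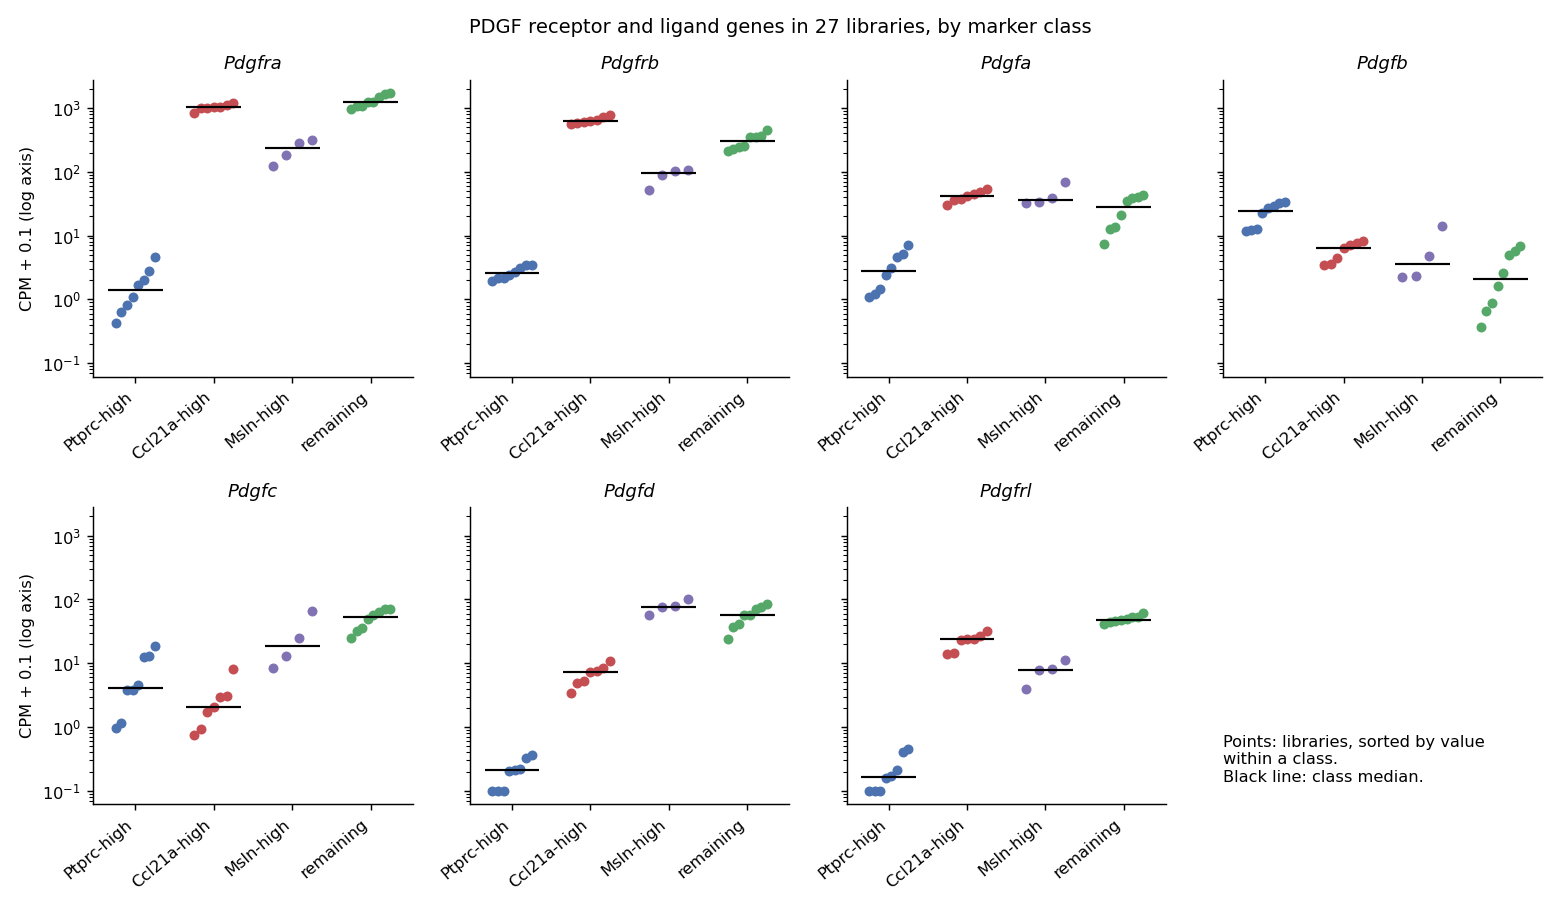
CPM plus 0.1 on a log axis for the 7 genes, with 1 point per library sorted by value within its marker class and a black line at the class median. Pdgfrb and Pdgfrl separate all 4 classes, Pdgfb is highest in the Ptprc-high class, and Pdgfd reaches 57.9 to 99.8 CPM in the Msln-high class.

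The balance of the receptors was measured as Pdgfra reads per Pdgfrb read, which does not depend on library size. It ran from 1.33 to 1.89 (median 1.63) in the Ccl21a-high class, 2.05 to 3.16 (2.53) in the Msln-high class and 2.79 to 5.44 (4.41) in the remaining libraries. Only the lowest remaining library, gp38-low TG- 2 at 2.79 (95% exact binomial interval 2.69 to 2.89, counting error only), lay inside the Msln-high range, and the other 7 were between 4.21 and 5.44. The Ccl21a-high class lay below both. In the Ptprc-high class the 7 libraries with at least 10 reads of each gene ran from 0.233 to 1.5 (median 0.773). Their intervals were wide, as in LN FRC TG- 4 at 0.233 (0.104 to 0.470) and LN FRC TG+ 3 at 1.5 (0.890 to 2.57), and LN FRC TG+ 2 had only 3 Pdgfra reads. Pdgfra has 10.024 kb of exon and Pdgfrb 5.478 kb, so the balance per kb of exon was lower. Per kb, the median ratio was 0.422 in the Ptprc-high, 0.889 in the Ccl21a-high, 1.38 in the Msln-high and 2.41 in the remaining libraries. On that scale Pdgfrb was the more abundant receptor transcript in 6 of the 7 Ccl21a-high libraries, where the ratio ran from 0.728 to 1.04, and Pdgfra in all 12 Msln-high and remaining libraries (1.12 to 2.97).

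**Figure D2:**
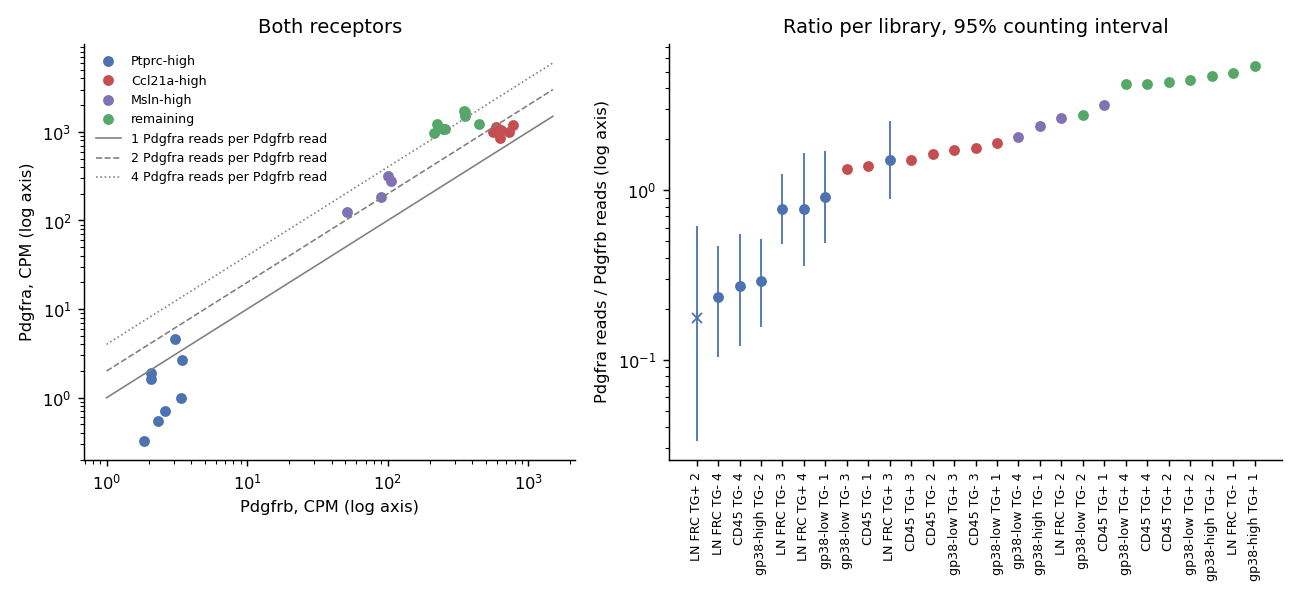
Left, Pdgfra against Pdgfrb in CPM on log axes with lines of constant read ratio. Right, the Pdgfra to Pdgfrb read ratio of each library in ascending order on a log axis, coloured by class, with 95% exact binomial intervals (a cross marks the library under 10 reads of a gene): Ccl21a-high libraries lie at 1.33 to 1.89 and remaining ones at 2.79 to 5.44.

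Among the ligands, Pdgfb was highest in the Ptprc-high class. Pdgfb (ENSMUSG00000000489.7, chr15:79995874-80014977) ran there from 11.8 to 33.0 CPM with a median of 24.6, on 111 to 605 reads. It ran from 3.38 to 8.10 CPM (median 6.31) in the Ccl21a-high class and from 0.274 to 6.76 (1.98) in the remaining libraries, with no overlap with the Ptprc-high class in either. The Ptprc-high median was 3.90-fold the Ccl21a-high and 12.4-fold the remaining median. The Msln-high libraries held 2.18, 2.22, 4.74 and 14.1 CPM, and the highest of these, gp38-high TG- 1, reached into the Ptprc-high range. Of the other known sources of PDGF-B, the platelet list of 5 genes summed to 17.4 to 138 CPM in the Ptprc-high class and to at most 8.99 CPM elsewhere. Pf4 carried that sum in the Ptprc-high class, at 16.6 to 136 CPM, and was at most 2.39 CPM elsewhere. Itga2b, of the same list, went the other way and made up most of the sum outside the Ptprc-high class. Its medians were 1.17 CPM in the Ptprc-high, 5.37 in the Ccl21a-high, 8.38 in the Msln-high and 4.44 in the remaining libraries. Ppbp, Gp9 and Gp1bb were at most 0.324, 0.117 and 0.158 CPM in any library. The 7 endothelial markers summed to 65.6 to 163 CPM in the Ptprc-high, 35.6 to 77.5 in the Ccl21a-high, 172 to 304 in the Msln-high and 146 to 324 in the remaining libraries. The leading gene was Pecam1 at 51.2 to 150 CPM in the Ptprc-high class, Kdr at 165 to 282 in the Msln-high class and Tek at 137 to 316 in the remaining and 27.1 to 60.4 in the Ccl21a-high libraries. Cdh5 was at most 5.83 CPM and Emcn at most 0.709 CPM in any library. The part of platelets and endothelium in the Pdgfb level was not tested.

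Among the classes without Ptprc, Pdgfa (ENSMUSG00000025856.15, chr5:138976014-138997370, minus strand) reached its lowest values in the remaining libraries. It ran from 29.9 to 54.6 CPM (median 41.8) in the Ccl21a-high class, 32.4 to 68.0 (36.5) in the Msln-high class and 7.37 to 43.6 (28.2) in the remaining libraries, and all 3 ranges overlapped. In the Ptprc-high class it ran from 0.979 to 6.93 CPM (median 2.68), below every other library. An antisense gene, 6330403L08Rik, overlaps Pdgfa and had a median of 19.9 CPM in the 19 libraries outside the Ptprc-high class. The reads were counted by strand here, and the forward-strand column held 6.67% to 15.3% of the stranded reads.

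Pdgfc and Pdgfd, the ligands that need proteolytic activation, had higher medians in the Msln-high and remaining libraries than in both other classes. Pdgfc (ENSMUSG00000028019.9, chr3:81036416-81214040) ran from 25.1 to 71.2 CPM (median 52.5) in the remaining libraries and was 8.44, 12.7, 24.5 and 66.8 CPM in the Msln-high ones. It ran from 0.650 to 8.12 CPM (1.98) in the Ccl21a-high class, with no overlap with either. The Ptprc-high class lay between, from 0.870 to 18.7 CPM (4.06), and overlapped the Msln-high and Ccl21a-high ranges. Pdgfd (ENSMUSG00000032006.15, chr9:6168584-6378850) was 57.9, 75.6, 77.5 and 99.8 CPM in the Msln-high libraries and 23.7 to 84.1 (median 56.5) in the remaining ones, and these overlapped. It ran from 3.38 to 10.6 CPM (7.14) in the Ccl21a-high class, and the remaining median was 7.91-fold that with no overlap. In the Ptprc-high class Pdgfd had at most 3 reads in a library.

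These levels gave each class its own mixture of ligand transcripts, set out here as shares of the summed CPM per kb of exon of the 4 ligand genes. In the Ptprc-high class Pdgfb made up 57.2% to 85.8% (median 73.9%), followed by Pdgfc at 13.6% and Pdgfa at 11.9% (medians). In the Ccl21a-high class Pdgfa made up 69.0% to 80.6% (78.4%) and Pdgfd 7.28% to 18%. Pdgfd led in the Msln-high class with 45.2% to 63.3% (58.2%), ahead of Pdgfa with 28.7% to 33.6%. It also led in the remaining libraries with 42.2% to 54.3% (49.1%), ahead of Pdgfc with 25.1% to 32.9% (27.3%). Each library had the same leading ligand as the others of its class. The sum of the receptor genes over that of the ligands, both per kb, had a median of 0.0926 in the Ptprc-high class, 13.4 in the Ccl21a-high class, 1.03 in the Msln-high class and 5.18 in the remaining libraries.

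**Figure D3:**
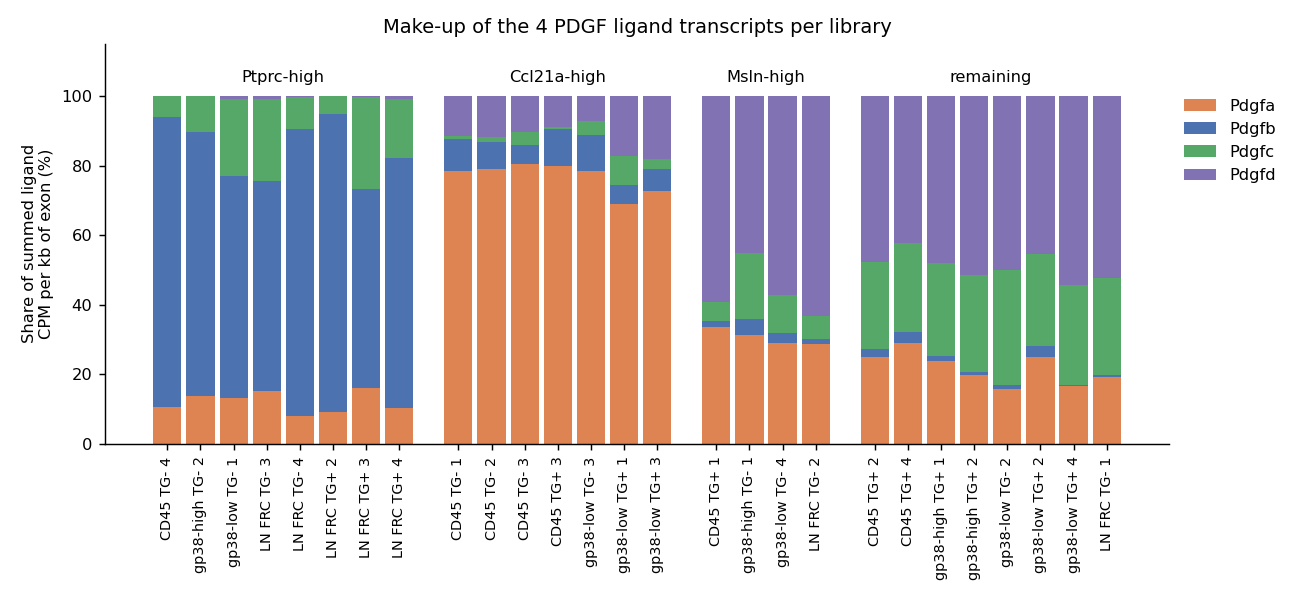
Share of each ligand gene in the summed ligand CPM per kb of exon, 1 bar per library, grouped by marker class. Pdgfb leads in every Ptprc-high bar, Pdgfa in every Ccl21a-high bar, and Pdgfd in every Msln-high and remaining bar.

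The promoter windows are shown for Pdgfra, the member with the highest CPM in the classes without Ptprc, and for Pdgfc and Pdgfd. The class medians of these ligands were highest in the remaining and Msln-high libraries. Each is the 250 bases before the RefSeq start (GRCm38.p6), 5′ to 3′ on the gene's strand, with capitals marking a TATAAA motif. The windows of Pdgfra (chr5:75152001-75152250, plus strand), Pdgfc (chr3:81036166-81036415, plus strand) and Pdgfd (chr9:6168236-6168485, plus strand) read:
Pdgfra: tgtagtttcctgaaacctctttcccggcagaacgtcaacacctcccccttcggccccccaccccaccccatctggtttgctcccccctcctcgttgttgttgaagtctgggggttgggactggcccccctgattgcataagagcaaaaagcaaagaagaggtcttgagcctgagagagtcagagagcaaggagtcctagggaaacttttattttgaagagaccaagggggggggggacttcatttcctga
Pdgfc: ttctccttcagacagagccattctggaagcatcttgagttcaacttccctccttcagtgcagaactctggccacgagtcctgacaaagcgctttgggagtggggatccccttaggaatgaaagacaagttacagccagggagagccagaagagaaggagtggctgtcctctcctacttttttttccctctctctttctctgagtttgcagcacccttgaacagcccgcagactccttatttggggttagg
Pdgfd: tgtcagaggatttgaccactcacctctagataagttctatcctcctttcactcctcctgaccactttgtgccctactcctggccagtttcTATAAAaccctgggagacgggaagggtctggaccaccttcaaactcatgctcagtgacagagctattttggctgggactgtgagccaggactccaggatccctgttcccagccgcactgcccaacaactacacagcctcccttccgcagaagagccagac
RefSeq windows matched 4 of the 7 members, and Pdgfa had 2 of them, at its alternative starts. These 3 windows had GC contents of 54.4%, 50.8% and 53.6% with 4, 3 and 3 CpG dinucleotides, against a median of 52.4% and 6 CpG over 32851 windows of that length. The Pdgfa windows had GC contents of 66.4% and 72.4%, with 19 and 28 CpG. Motifs were searched on both strands. The Sp1 box GGGCGG was in both Pdgfa windows and in none of the 3 shown, and 32.7% of all windows held it. TATAAA was in the Pdgfd window alone of the 5 and in 12.4% of all windows. The cAMP response element TGACGTCA and the AP-1 site TGACTCA were in none of the 5, and in 1.55% and 4.46% of all windows.

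Within the remaining class the ligand genes varied more than the receptor genes. The 4 libraries CD45 TG+ 2, CD45 TG+ 4, gp38-high TG+ 1 and gp38-low TG+ 2 held 35.3 to 43.6 CPM of Pdgfa and 2.46 to 6.76 CPM of Pdgfb. The other 4, gp38-high TG+ 2, LN FRC TG- 1, gp38-low TG+ 4 and gp38-low TG- 2, held 7.37 to 21.2 CPM of Pdgfa and 0.274 to 1.51 CPM of Pdgfb. Pdgfc (56.2 to 71.2 against 25.1 to 48.9 CPM) and Pdgfd (56.9 to 84.1 against 23.7 to 56.0 CPM) were divided the same way. The receptors were divided the other way, with Pdgfra at 966 to 1225 against 1237 to 1701 CPM and Pdgfrb at 215 to 254 against 348 to 444 CPM. This grouping was made after the values were seen and has no test. Pancreatic epithelial markers moved with it. A set of 4 ductal markers (Krt19, Sox9, Spp1 and Cftr, none at 0) summed to 1885 to 2301 CPM in the first 4 libraries and 183 to 1028 CPM in the others. The 6 acinar markers summed to 5245 to 10372 against 92.3 to 356 CPM. Their part in the ligand levels was not tested.

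The same genes set gp38-high TG- 1 apart among the Msln-high libraries. It held 68.0 CPM of Pdgfa against 32.4 to 39.1 in the other 3, 14.1 of Pdgfb against 2.18 to 4.74, and 66.8 of Pdgfc against 8.44 to 24.5. It also held the fewest receptor reads, with 123 CPM of Pdgfra against 185 to 319 and 51.6 of Pdgfrb against 90.2 to 105. Its ductal sum was 2366 CPM against 849 to 1284. Spp1 held most of that sum, at 1447 CPM against 95.5 to 458 in the other 3. Krt19, of the same set, went the other way, at 586 CPM against 630 to 702. The reads of gp38-high TG- 1 outside genes or ambiguous were 26.8% of all reads against 15.4% to 20.8%. The part of the ductal markers and of these reads in its values was not tested.

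Within the Ptprc-high class, Pdgfb lay in a lower set of 3 libraries and a higher set of 5. CD45 TG- 4, LN FRC TG+ 2 and LN FRC TG+ 4 held 11.8, 12.2 and 12.8 CPM. The other 5 held 22.3 to 33.0 CPM, and Pdgfa did not overlap between the sets either (0.979 to 1.38 against 2.32 to 6.93 CPM). Pdgfc did overlap, at 0.870 to 3.68 against 3.65 to 18.7 CPM. Csf1r, the receptor for macrophage colony-stimulating factor and a gene of monocytes and macrophages, was at 267 to 329 CPM in the lower set and 701 to 1139 CPM in the higher. The 7 leukocyte markers summed to 4161 to 4536 CPM in the lower set and 5059 to 6965 CPM in the higher. The part of these cells in the Pdgfb level was not tested.

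**Figure D4:**
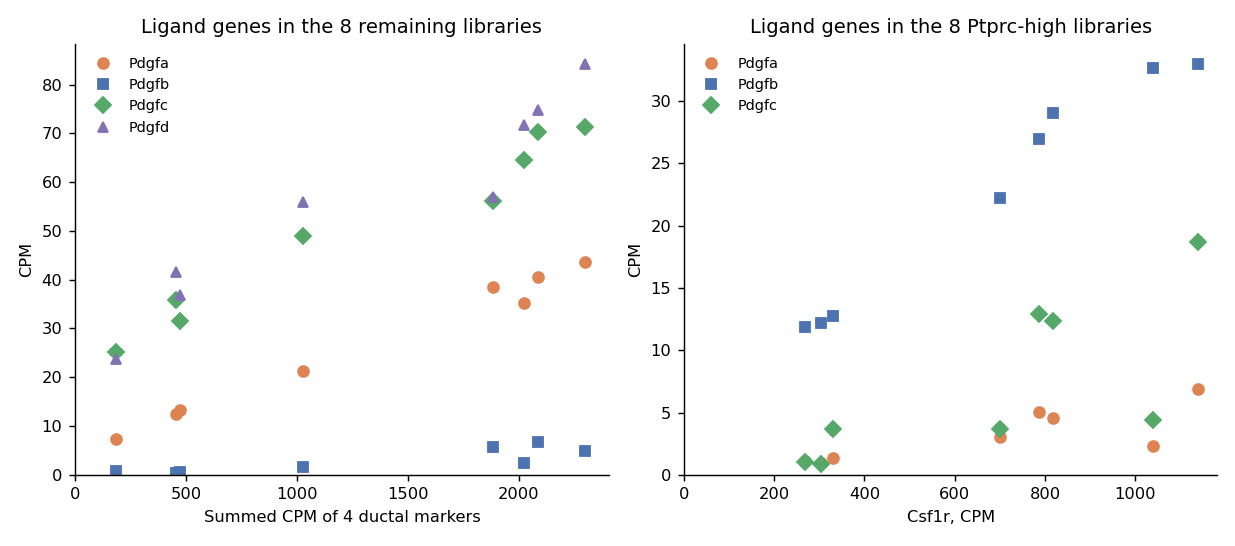
Left, CPM of the 4 ligand genes in the 8 remaining libraries against the summed CPM of 4 ductal markers: the 4 libraries with 1885 to 2301 CPM of ductal markers hold the most of each ligand gene. Right, CPM of Pdgfa, Pdgfb and Pdgfc in the 8 Ptprc-high libraries against Csf1r: Pdgfb is at 11.8 to 12.8 CPM in the 3 libraries with the least Csf1r and 22.3 to 33.0 CPM in the others.

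Among themselves the members fell into pairs over the 19 libraries outside the Ptprc-high class. Pearson's r of log2(CPM + 1) was 0.90 for Pdgfa with Pdgfb, 0.88 for Pdgfc with Pdgfd, 0.89 for Pdgfra with Pdgfrl and 0.81 for Pdgfra with Pdgfrb. Pdgfrb and the ligand for its receptor, Pdgfd, ran opposite to each other with r = -0.84. The libraries share their class structure, so these values describe the classes as much as single libraries. By the same measure over about 10568 genes, the gene most like Pdgfra was Ebf1 (r = 0.98), a transcription factor gene, at medians of 172, 23.1 and 179 CPM in the Ccl21a-high, Msln-high and remaining libraries. Col4a1, a basement membrane collagen gene, was also among the 5 most like Pdgfra (0.97). Rasl12 was most like Pdgfrb (0.98), with medians of 56.2, 0.836 and 10.6 CPM in the same classes, and Ltbp1, which encodes a TGF-beta binding protein, was also among its first 5 (0.97). Prex1 (0.98) and Hvcn1 (0.97) were too, but had medians of 347 and 354 CPM in the Ptprc-high class, which this measure leaves out. Rasl12, Dact1 and Ltbp1, the others of the 5, had medians of 0.554, 0.676 and 2.25 CPM there. Pdgfd was followed most closely by Ppp1r9a (0.99) and Pdgfc by Enpp1 (0.98), which encodes a pyrophosphatase. Ssc5d led for Pdgfrl (0.96), and Lpl, the lipoprotein lipase gene, was among its first 5. Pdgfa and Pdgfb shared both of their closest genes, Epb41 and Myo18a.

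Of the 10 genes that process or bind the ligands, 8 had their highest class median in the remaining libraries. No share over all genes was computed for this, so the count describes these genes only. The exceptions were Nrp1, with a median of 733 CPM in the Ccl21a-high class against 181 in the remaining libraries, and A2m, with 23 CPM in the Msln-high class against 2.78. Both were named after their values were seen. Sparc, a matrix protein that binds PDGF-B, had medians of 3447 CPM there, 1885 in the Ccl21a-high, 1933 in the Msln-high and 7.54 in the Ptprc-high class. Lrp1, an endocytic receptor that associates with PDGFRB, had medians of 5439, 3620, 2906 and 338 CPM in the same order of classes. Thbs1, a matrix protein gene, had medians of 814, 623, 374 and 20.4 CPM. Plat encodes tissue plasminogen activator, which activates PDGF-C. Its medians were 387 CPM in the remaining and 327 in the Msln-high libraries, the classes with the highest Pdgfc medians. They were 37.7 in the Ccl21a-high and 1.51 in the Ptprc-high class. Plau encodes urokinase, a protease that can activate PDGF-D, and had medians of 310 CPM in the remaining libraries, 44.6 in the Ccl21a-high, 37.4 in the Msln-high and 41.9 in the Ptprc-high class. It was named after its values were seen. Pcsk5, a convertase gene, was at 94.8 to 161 CPM in the remaining libraries and at most 51.4 CPM in any other.

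Signalling genes downstream of the receptors varied between classes to different degrees. Akt1 had medians of 152 to 177 CPM over the 4 classes, and Mapk3, which encodes the kinase ERK1, 71.3 to 147 CPM. Stat3 had medians of 186 to 376 CPM, highest in the Msln-high class. The adaptor gene Gab1 was at 87.2 to 120 CPM in the classes without Ptprc and at 9.44 CPM in the Ptprc-high class (medians), and the kinase gene Fyn ranged from 21.1 CPM in the Ccl21a-high class to 166 CPM in the remaining libraries. Src, a kinase that binds the activated receptors, was higher in the Ccl21a-high class, at 193 to 278 CPM, than in any other library (at most 148 CPM). The Ptprc-high median of Src was 14.0 CPM. The feedback inhibitors Spry1, Spry2 and Spry4 had their highest medians in the remaining libraries, at 127, 129 and 64.6 CPM, and their lowest in the Ptprc-high class, at 9.94, 7.13 and 1.76 CPM. Dusp6, which encodes a phosphatase of ERK kinases, ran from a median of 50.4 CPM in the Ccl21a-high class to 161 CPM in the Msln-high class. The early response gene Egr1 was at 2218 to 3800 CPM in the 19 libraries outside the Ptprc-high class and 333 to 595 CPM within it. Fos ran from 1539 to 3836 CPM against 827 to 1286 CPM in the same groups. Jun had medians of 3336 CPM in the Ccl21a-high, 2594 in the Msln-high, 1512 in the remaining and 792 in the Ptprc-high libraries. The medians of Fosb were 2959, 4163, 1630 and 931 CPM in that order, and those of Fosl1 4.08, 12.2, 1.67 and 1.46 CPM. The related receptor Csf1r was highest in the Ptprc-high class at a median of 744 CPM and next in the Msln-high class at 103 CPM. Kdr, the VEGF receptor gene, was at 165 to 282 CPM in the Msln-high class and at most 13.6 CPM elsewhere. Flt3 was at 27.6 to 62.1 CPM in the Ptprc-high class and at most 0.366 CPM elsewhere. Kit was at 25.8 to 58.5 CPM in the Ptprc-high class and overlapped the remaining libraries, and Flt4 was at 11.8 to 29.6 CPM in the Ccl21a-high class and at most 12.7 CPM elsewhere. Of the related ligands, Vegfd had medians of 79.8 CPM in the remaining and 43.8 in the Msln-high libraries against 8.32 in the Ccl21a-high class. Pdgfd was also higher in these classes than in the Ccl21a-high class, but in the other order, with medians of 56.5 CPM in the remaining and 76.6 in the Msln-high libraries. Vegfc had its highest median in the Ccl21a-high class, 83.1 CPM, against 14.2 in the remaining libraries. Vegfa, too, was highest there at a median of 492 CPM, and Csf1, the ligand of Csf1r, was at 284 to 516 CPM in all libraries outside the Ptprc-high class and at 7.37 to 14.6 CPM within it.

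The design asks whether the transgene changed gene expression in each sorted population, and the labelled groups were tested for it across all genes. Among libraries labelled CD45, Pdgfc was 0.843, 1.65, 2.87 and 1.06 CPM in TG- and 8.44, 71.2, 0.650 and 56.2 CPM in TG+. Of the TG+ values, 3 lay above all TG- ones, and CD45 TG+ 3, a Ccl21a-high library, lay below them all. The log2 difference was 4.13 ± 1.25 (SE), with an adjusted p of 0.506 by edgeR's quasi-likelihood test with Benjamini-Hochberg adjustment. DESeq2 gave Pdgfc an adjusted p of 0.0106 and limma-voom 0.0104, edgeR gave 0.0376 without CD45 TG+ 3, and the other settings gave 0.294 to 0.888. Pdgfd was 7.14, 8.26, 4.85 and 0 CPM in TG- and 57.9, 84.1, 5.08 and 56.9 CPM in TG+, a log2 difference of 3.16 ± 1.23 (adjusted p = 0.508). The groups overlapped again through CD45 TG+ 3. The other 5 members had log2 differences of -0.78 to 0.82. In edgeR 0 of the 7 members and 0% of the 14871 genes tested passed, with 2 members and 1402 genes at an unadjusted p under 0.05. DESeq2 called 2.87% of the genes (427), Pdgfc alone among the members, and limma-voom 41.6% (6184), Pdgfc, Pdgfd and Pdgfrb among them. The labelled groups differed in class, since the TG- libraries were 3 Ccl21a-high and 1 Ptprc-high, and the TG+ libraries 1 Ccl21a-high, 1 Msln-high and 2 remaining.

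Among libraries labelled gp38-low, Pdgfra was 1.91, 1237, 841 and 185 CPM in TG- and 1125, 966, 1017 and 1493 CPM in TG+. The groups overlapped through gp38-low TG- 2, and the log2 difference was 0.82 ± 1.31 (edgeR adjusted p = 0.999). Pdgfb was 29.1, 0.781, 6.31 and 4.74 CPM in TG- and 4.41, 6.76, 3.43 and 0.274 CPM in TG+, with a log2 difference of -1.58 ± 1.13 (adjusted p = 0.999). The other members lay between 0.39 and 0.71. No member passed, as with 0% of the 14095 genes (273 at an unadjusted p under 0.05, none of them members), and DESeq2 called 1 gene (0.00709%) and limma-voom 0. Among the libraries labelled gp38-high, Pdgfrl was 3.88 and 0.0618 CPM in TG- and 45.0 and 40.7 CPM in TG+. The log2 difference was 4.69 ± 1.94 (adjusted p = 0.663) and the groups did not overlap. Pdgfra (4.83 ± 2.34), Pdgfrb (3.65 ± 1.91) and Pdgfb (-3.27 ± 1.57) also had large differences with the same adjusted p. Here 0% of 17937 genes passed in edgeR, with 920 at an unadjusted p under 0.05, and 40 did in DESeq2 (0.223%) and 0 in limma-voom. One of the TG- libraries was Msln-high and the other Ptprc-high, while both TG+ libraries were of the remaining class.

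Among libraries labelled LN FRC, all 3 TG+ libraries were Ptprc-high, and the receptor genes were low in all of them. Pdgfra was 1701, 281, 2.64 and 0.541 CPM in TG- and 0.326, 4.58 and 1.61 CPM in TG+. Both Ptprc-high TG- libraries lay within the TG+ range, and the other 2 were far above it. The log2 difference was -7.80 ± 3.03 for Pdgfra and -5.49 ± 1.95 for Pdgfrb (both adjusted p = 0.696 in edgeR). Pdgfd and Pdgfrl did not pass the filter on low counts and were not tested. Of the 5 tested, 0 passed, as with 0% of 13819 genes (981 at an unadjusted p under 0.05, 2 of them members). DESeq2 called 3.97% of the genes (549), Pdgfra and Pdgfrb among them, and limma-voom 0.

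Over all 27 libraries the transgene difference was fitted with the labelled population as a term, and then with the marker class in its place. With the labelled population, the difference was 0.05 ± 1.41 for Pdgfra, -0.49 ± 1.10 for Pdgfrb, -1.05 ± 0.59 for Pdgfb and 1.28 ± 0.80 for Pdgfc on the log2 scale (adjusted p 0.764 to 0.996). No member was called, as with 0% of 19010 genes (1259 at an unadjusted p under 0.05). DESeq2 called 629 genes (3.31%) and limma-voom 0. With the marker class, the SE of Pdgfra fell to 0.23 and that of Pdgfrb to 0.16. The differences were then 0.16 ± 0.23 for Pdgfra, -0.25 ± 0.16 for Pdgfrb and -0.05 ± 0.21 for Pdgfrl. The ligands gave 0.17 ± 0.27 for Pdgfa, -0.06 ± 0.39 for Pdgfb, 0.26 ± 0.44 for Pdgfc and 0.34 ± 0.21 for Pdgfd. The adjusted p ran from 0.531 to 0.968 and 0% of genes were called, with 1822 at an unadjusted p under 0.05. The classes were set from the same libraries, so this fit is a description of the difference within classes.

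**Figure D5:**
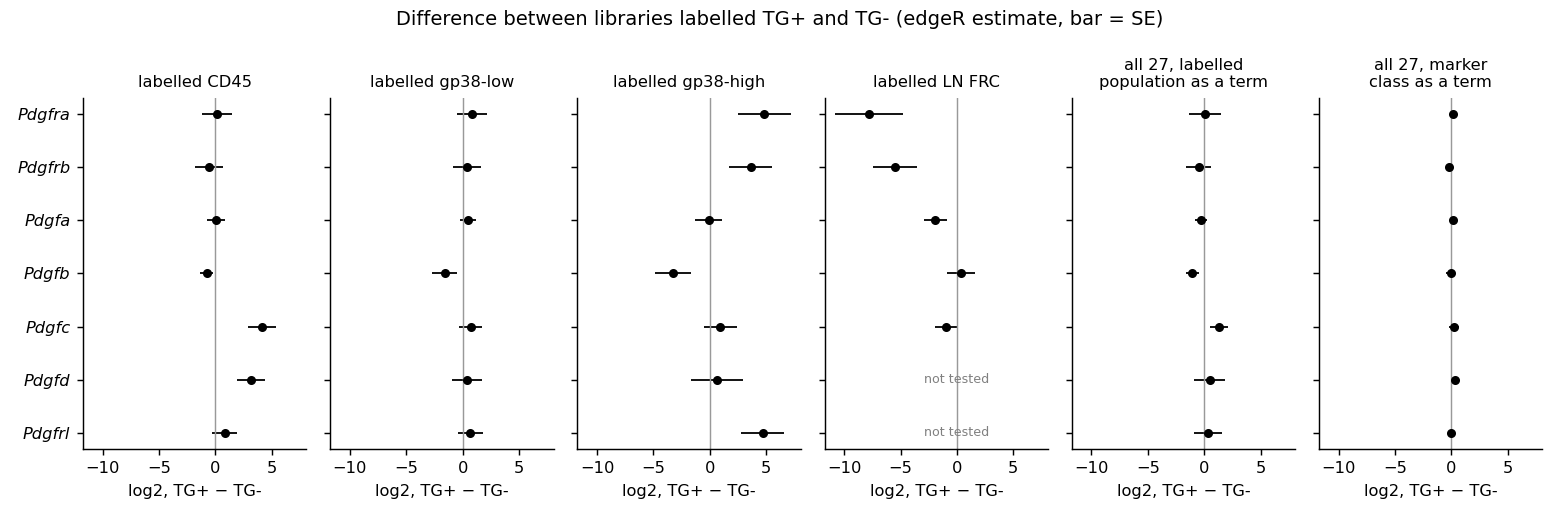
Log2 difference between libraries labelled TG+ and TG- (edgeR estimate with SE as a bar) for the 7 genes, in each labelled population and over all 27 libraries with the labelled population or the marker class as a term. The SE runs from 0.56 to 3.03 log2 units in the labelled populations and is at most 0.44 with the marker class as a term.

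For the receptor ratio, TG+ and TG- libraries were compared in each labelled population with an exact permutation test (two-sided, 4 tests in all). In the libraries labelled CD45 the mean log2 ratio was 1.61 ± 0.71 (SD, n = 4) in TG+ and 0.02 ± 1.28 (SD, n = 4) in TG-, a difference of 1.59 (exact p = 0.0857, adjusted 0.343). The differences were 0.79 in gp38-low (exact p = 0.2, adjusted 0.4) and 2.60 in gp38-high (exact p = 0.333, adjusted 0.444, with 0.333 the smallest that 2 against 2 allows). In LN FRC the difference was -0.20 (exact p = 1), over 2 TG+ and 4 TG- libraries, where the smallest possible p is 0.133. None passed, and the smallest exact p that 4 against 4 allows is 0.0286.

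The labelled stromal populations were compared with both genotypes weighted equally. For gp38-low minus LN FRC, 6 of the 7 differences were positive. The log2 values were 4.62 ± 1.57 for Pdgfra, 4.45 ± 1.22 for Pdgfrb and 4.77 ± 1.56 for Pdgfrl (each adjusted p = 0.0943 in edgeR). Pdgfd gave 4.12 ± 1.63 (adjusted p = 0.103), Pdgfa 1.98 ± 0.70 (0.0943), Pdgfc 0.87 ± 0.77 (0.4) and Pdgfb -1.72 ± 0.85 (0.153). None passed, as with 0% of 18396 genes, though 5 members and 6639 genes had an unadjusted p under 0.05. DESeq2 called 26% of genes and limma-voom 47%, and both called Pdgfra, Pdgfrb, Pdgfrl, Pdgfa and Pdgfd. With edgeR, 5403 genes passed without gp38-low TG- 1, among them Pdgfra, Pdgfrb, Pdgfrl, Pdgfa and Pdgfb, and 1369 without LN FRC TG- 1, among them Pdgfra, Pdgfrb and Pdgfrl. Of the 7 libraries labelled LN FRC, 5 were Ptprc-high, against 1 of the 8 labelled gp38-low. Between gp38-high and LN FRC the differences were -1.87 to 4.85 and between gp38-high and gp38-low -2.41 to 0.79, with none called. In those fits 0% of 18396 genes passed, with 3014 and 509 at an unadjusted p under 0.05. DESeq2 called 738 genes (4.01%), Pdgfd among them, in the first and 147 (0.799%) in the second, and limma-voom 0 in both.

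The other genes of the pathway were tested in the same edgeR fits. Of 65 listed genes in 6 lists, 59 to 65 passed the filter on low counts, and edgeR called 0 in each of the 8 comparisons. DESeq2 called 28 of them for gp38-low against LN FRC (23 higher in gp38-low, 5 lower), 5 for the transgene in LN FRC (all lower in TG+), 2 for gp38-high against LN FRC, 1 in CD45, 1 over all 27 libraries and 0 in the other 3 comparisons. limma-voom called 41 for gp38-low against LN FRC (30 higher, 11 lower), 36 in CD45 (20 higher in TG+, 16 lower) and 0 in the other 6. Over all genes, DESeq2 called 26% and limma-voom 47% for gp38-low against LN FRC, and limma-voom 41.6% in CD45. The DESeq2 shares were 3.97% for the transgene in LN FRC, 4.01% for gp38-high against LN FRC, 2.87% in CD45 and 3.31% over all 27 libraries. At an unadjusted p under 0.05 there were 8 in CD45, 2 in gp38-low, 2 in gp38-high and 9 in LN FRC for the transgene, and 32 for gp38-low against LN FRC. The shares of all tested genes at that limit were 9.43%, 1.94%, 5.13%, 7.1% and 36.1% in the same order. The median log2 difference of the pathway genes in CD45 was 0.13, against -0.05 over all genes tested, and in LN FRC -0.38 against 0.03. For the genes that process or bind ligands the CD45 median was 1.27, with 8 of 10 positive and 3 at an unadjusted p under 0.05. In LN FRC it was -2.68, with 0 of 8 positive and 4 at an unadjusted p under 0.05. No share of positive differences over all genes was computed, so these counts describe the listed genes only.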

How the data were processed

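RNA of cells sorted into TRIzol was made into libraries with rRNA removal, per the labels' protocols. The submitters' processing notes name STAR 2.5.2a, Trim Galore 0.4.3, bcl2fastq 2.17 and the mouse build mm10. For the gene annotation used in counting, the release was not given in these sources. The authors deposited 1 table of raw read counts per gene for each library, in the form STAR writes. The reverse-strand column was used, because the forward one held 6.67% to 15.3% of the stranded reads. The 4 lines of reads in no gene were left out of library sizes: unmapped (19.4% to 67.7%), multimapped (4.98% to 7.28%), and outside genes or ambiguous (6.37% to 26.8% together). Reads in genes set CPM, and exon lengths from GENCODE (GRCm38) set CPM per kb. Of 54446 identifiers, 54409 matched that annotation without their version suffix.

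The test was that of edgeR 4.0.16 under R 4.3.3 (TMM, filterByExpr, robust quasi-likelihood F test, Benjamini-Hochberg adjustment, threshold 0.05) over all genes. CD45, gp38-low and LN FRC libraries were each fitted alone, gp38-high within the 12 islet stromal libraries, and population comparisons within the 19 stromal libraries. An SE is the size of the log2 difference over the square root of its F. On simulated counts with 200 genes changed 4-fold, 99.5% were recovered in the gp38-low design and 100% over all 27 libraries. Those counts were drawn around a common mean per gene with a fixed spread and no mixture of marker classes. The labelled groups mix classes, so these shares do not give the power of the tests on the real libraries. Alternatives were DESeq2 1.42.0, limma-voom 3.58.1 with quality weights, RLE factors, no filter, unstranded counts, Gm26917 left out, the replicate number as a block, other covariates, and each library left out in turn.

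The members, lists and classes were chosen with earlier results of these data known. Named besides the members and class genes were, per pathway list, the 3 genes highest per kb and the 3 that differed most between classes, and the 5 genes most like each member, of which the first and a few others are given. One listed marker is not reported here and was left out of its list. Intervals and limits for 0 reads describe counting error alone, because reads copied by PCR are not separate molecules. Multimapped reads were not counted for any gene.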

Additional observations from a re-analysis of the deposited data

Results flagged for a closer look

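Of 72 groups of 4 to 10 libraries tested for a value far from the rest (Dixon's test), 7 gave one, and chance gives about 1 in 20. Among libraries labelled CD45 TG-, replicate 4 held 0.708 CPM of Pdgfra against 993 to 1038 in the other 3, and 0.0708 CPM of Pdgfrl against 23.3 or more. It is the Ptprc-high library of that group. Among those labelled CD45 TG+, replicate 1, the Msln-high library, held 319 CPM of Pdgfra against 1063 or more. LN FRC TG- 1, the library of that group in the remaining class, held 1701 CPM of Pdgfra against at most 281, and 60.7 CPM of Pdgfrl against at most 8.12. Within classes, gp38-low TG+ 1 had the highest Pdgfc of the Ccl21a-high libraries at 8.12 CPM, where the next was at 3.02. The Pdgfra to Pdgfrb ratio of gp38-low TG- 2 was 2.79, the lowest of the remaining libraries, where the next was at 4.21. Its Pdgfrb (444 CPM) was the highest of that class.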

How the results depend on the processing

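Counts of called genes depended on the tool. Against 0 by edgeR in each of the 8 comparisons, DESeq2 called 427 genes in CD45, 1 in gp38-low, 40 in gp38-high, 549 in LN FRC, 147 for gp38-high against gp38-low, 4777 for gp38-low against LN FRC, 738 for gp38-high against LN FRC and 629 over all 27 libraries. limma-voom called 6184 in CD45 and 8651 for gp38-low against LN FRC. Leaving out 1 library gave 0 to 519 calls in CD45 (519 without CD45 TG+ 3) and 0 to 5403 for gp38-low against LN FRC (5403 without gp38-low TG- 1, 1369 without LN FRC TG- 1), and 0 in the other 6 comparisons. No same-numbered libraries are said to share an animal or batch, and their deviations correlated over 0.1 in only 2 of 13 pairs. With the replicate block the count stayed at 0 in all 8 comparisons, and in CD45 2 of 4 pairs correlated best with their own number. Signs turned for small differences: Pdgfra in CD45 (-0.082 by limma-voom, -0.28 to 0.41 with 1 library left out), Pdgfrb in gp38-low (-0.018 by limma-voom, -0.012 to 1.17), and over all 27 libraries Pdgfra (-0.29 to 0.42) and Pdgfrb (0.22 with the replicate block, 0.021 with no covariate). Pdgfd for gp38-high against LN FRC ran from -1.12, without gp38-high TG- 1, to 5.35. The ratio difference in LN FRC ran from -1.0 to 0.46 with 1 library left out. With at least 50 reads it could not be computed there, because the LN FRC TG+ libraries held 3, 39 and 14 Pdgfra reads. The cause of the shifts with a library left out was not tested. Class medians moved by more than the spread only without Gm26917, for Pdgfra (1160 CPM) and Pdgfrb (721 CPM) in the Ccl21a-high class and Pdgfrb (3.47 CPM) in the Ptprc-high class. No library changed class with thresholds 10-fold lower. Depth limits Pdgfra, Pdgfd and Pdgfrl in the Ptprc-high class, where libraries held at most 39, 3 and 4 reads of them.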
